A study of Saccharomyces cerevisiae with 6 samples.

Results

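The factors that build the large, 60S, subunit of the yeast ribosome were followed in cells whose only Hsp90 is wild-type Hsc82 or the substituted form hsc82-W296A. Members were 60 genes chosen by name for a known part in 60S assembly, and all 60 had a probe set on the array, out of 5449 measured Saccharomyces cerevisiae genes. No member had several probe sets, and none carried an ID that marks shared probes. Measured values played no part in the rule, although the genes were chosen with earlier results of these data known.

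All cultures were of strain JJ816, in which both chromosomal Hsp90 genes, HSC82 and HSP82, are deleted. A plasmid supplied WT HSC82 in 3 cultures and hsc82-W296A in the other 3, so the deletions and the plasmid were common to both groups. The sources used here give neither the plasmid's promoter nor its copy number. Cultures grew overnight in YPD, a rich glucose medium, and were taken in exponential phase. Total RNA of each culture, a biological replicate per the labels, was hybridised to 1 Affymetrix array. Values are log2 array values, and changes are hsc82-W296A minus WT Hsc82 on that log2 scale with their standard error (SE) from limma, over 3 arrays in each group. A call means a Benjamini-Hochberg adjusted p under 0.05 over all S. cerevisiae probe sets.

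A 60S subunit is made in the nucleolus from a long precursor of the ribosomal RNA, onto which ribosomal proteins and transient assembly factors bind. RNA helicases, methyltransferases, GTPases and the giant ATPase Mdn1 reshape the particle, which then leaves through the nuclear pore and sheds its last factors in the cytoplasm. In budding yeast, genes for these factors belong to the ribosome biogenesis regulon, which is transcribed strongly in fast growth on glucose and less when nutrients or stress slow growth.

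The cells expressed the yeast genes used as identity markers: ACT1, PGK1, TDH3, PMA1, CDC19, ENO2 and RPL3 had means between 13.80 and 14.82 over the 6 arrays. The plasmid-borne gene HSC82 was read in every culture, with means of 14.28 for WT Hsc82 and of 14.54 for hsc82-W296A. HSC82 was called higher in hsc82-W296A by limma, at 0.26 ± 0.041 (adjusted p = 0.00139), as were 37.1% of all genes. The part of this difference in the changes below was not tested. The HSC82 probe set does not test the substitution. The mean over all probe sets was 8.91 to 8.92 on every array. The median of all S. cerevisiae genes was 10.94 to 11.04 over WT Hsc82 arrays and 11.07 to 11.13 over hsc82-W296A arrays, while the median of probe sets of another species, which serve as background, was 6.52 to 6.70 and 6.38 to 6.46. These technical levels move with the genotype, and their part in the changes below was not tested. An array reports each transcript against the total RNA of a culture, so fewer cells with the transcript and less of it per cell cannot be told apart.

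Transcripts of the 60S assembly factors were lower in hsc82-W296A in nearly the whole set. Of 60 members, 54 fell and 0 rose, 6 did not pass, and 58 had a change below 0, as did 45.8% of all genes. Among all 5449 genes 30.3% were called lower and 37.1% higher, or 67.3% in either direction, and the same limma test at an unadjusted p under 0.05 also put 54 members lower and 0 higher. The members' median change was -0.52, against 0.04 for all genes. As deposited their changes ran from -0.86 for RRP8 to 0.02 for DBP7, with 0 members at least 2-fold lower, where 0.863% of all genes were called and at least 2-fold lower. A change of -0.5 or less was seen in 32 members, and 8.85% of all genes were called at that size.

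The arrays were close within a genotype. The median of the 60 members was 12.47, 12.48 and 12.41 on the WT Hsc82 arrays, and on the hsc82-W296A arrays it was 11.91, 11.86 and 11.85, each time from replicate 1 to 3. Every hsc82-W296A array thus had a lower median than any WT Hsc82 array. In 56 members the highest hsc82-W296A value lay below the lowest WT Hsc82 value, a separation that 34.1% of all genes showed in this direction and 39.5% in the other, where 0 members lay. The groups overlapped in URB1, SPB1, LSG1 and DBP7. The members stood at the median percentile 81.0 of all genes by level in WT Hsc82, and at 69.0 in hsc82-W296A. All 60 members lay above the background level of 8.14. Among the 3575 genes whose mean level lay within the members' range, 10.27 to 13.74, 36.6% were called lower. Levels were not matched within that range. The change and the WT Hsc82 level had a Spearman correlation of -0.385 over all genes and -0.198 over the members. The part of level in the members' changes was not tested.

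**Figure D1:**
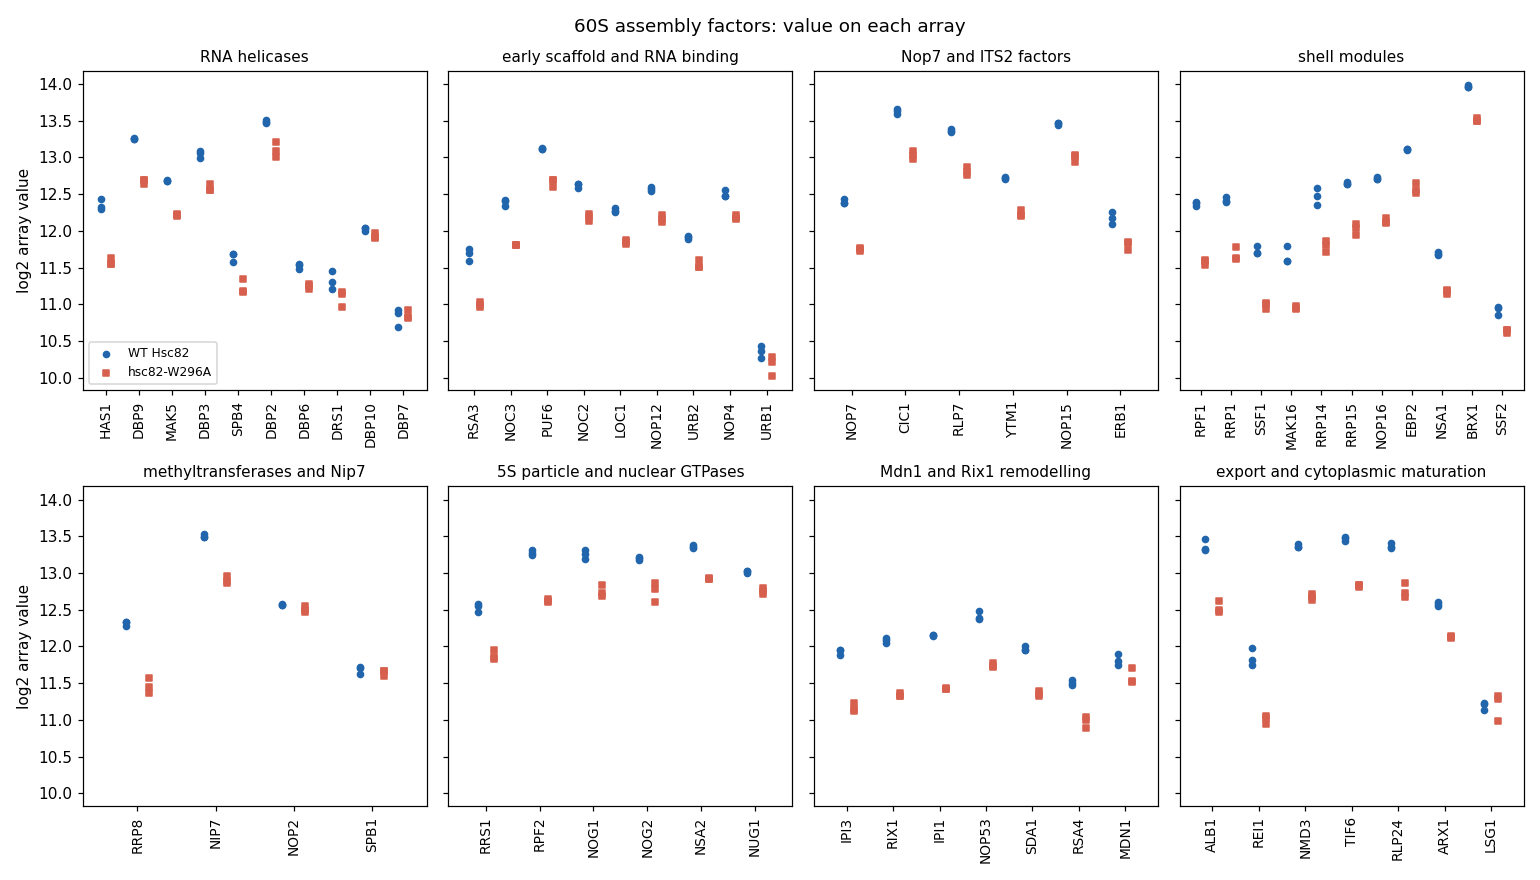
Log2 array value (vertical axis) of each of the 60 factors on each of the 6 arrays, in 8 role groups; blue circles are the 3 WT Hsc82 arrays and red squares the 3 hsc82-W296A arrays. In 56 factors all red squares lie below all blue circles, and genes of 1 group start from different levels.

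The RNA helicases unwind and remodel pre-ribosomal RNA, and 8 of these 10 fell, with a median of -0.40. Counts of this and the other role groups, each of few genes, stand beside 30.3% of all genes called lower. HAS1, a helicase needed for both subunits, read 12.44, 12.29 and 12.33 in WT Hsc82 and 11.63, 11.54 and 11.55 in hsc82-W296A. Its change was -0.78 ± 0.055 (adjusted p = 3.69e-05). DBP9, a helicase of early 60S particles, read 13.26, 13.25 and 13.27 and then 12.70, 12.64 and 12.69, a change of -0.58 ± 0.040 (adjusted p = 3.42e-05). In both genes the replicates lay much closer together than the genotypes did. MAK5 read 12.68, 12.69 and 12.68 in WT Hsc82 and 12.20, 12.22 and 12.23 in hsc82-W296A, and changed by -0.47 ± 0.039 (adjusted p = 6.82e-05). DBP3, SPB4, DBP2 and DBP6 changed by -0.46, -0.42, -0.39 and -0.28 and passed. DRS1 was the least certain of the called helicases, at -0.24 ± 0.085 (adjusted p = 0.0421), since its adjusted p was 0.0540 to 0.128 when any one array but WT Hsc82 replicate 1 was left out.

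Helicases also held 2 of the members that did not pass. DBP7, an early-acting helicase, read 10.70, 10.92 and 10.89 in WT Hsc82 and 10.82, 10.83 and 10.92 in hsc82-W296A, with overlapping groups. Its change was 0.02, with a 95% interval from -0.15 to 0.19 (adjusted p = 0.783), and became -0.13 after quantile normalization. DBP10, another helicase of the nucleolar 60S particle, read 12.00, 12.04 and 12.04 and then 11.97, 11.92 and 11.90. These groups did not overlap, but the change of -0.10 had an interval from -0.20 to 0.0020 (adjusted p = 0.0757). DBP10 was called lower under each rescaling, at -0.16 after quantile normalization, -0.21 after median centring and -0.28 when every array was stretched to the same background and yeast medians (background and middle matched). The interval of DBP10 does not meet those of HAS1 and DBP9.

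Proteins that organise the earliest particle and bind its RNA showed 8 of 9 genes lower, with a median of -0.44. RSA3, a component of the Npa1 complex, read 11.76, 11.70 and 11.59 in WT Hsc82 and 11.03, 11.00 and 10.96 in hsc82-W296A, which gave a change of -0.69 ± 0.055 (adjusted p = 5.91e-05). NOC3, which has a part in moving particles from the nucleolus to the nucleoplasm, read 12.34, 12.40 and 12.42 and then 11.80, 11.81 and 11.81. It changed by -0.58 ± 0.042 (adjusted p = 4.02e-05). For these genes the lowest WT Hsc82 array was well above the highest hsc82-W296A array. LOC1, an RNA-binding protein also known for localising ASH1 mRNA, read 12.26, 12.31 and 12.27 and then 11.87, 11.82 and 11.85, and changed by -0.44 ± 0.042 (adjusted p = 0.000132). PUF6, its partner in that localisation, changed by -0.46, NOC2 by -0.44, NOP12 by -0.41, URB2 by -0.37 and NOP4 by -0.31, all called lower. URB1, the scaffold of the Npa1 complex, was the dimmest member and did not pass. It read 10.26, 10.43 and 10.37 in WT Hsc82 and 10.03, 10.28 and 10.22 in hsc82-W296A, so the groups overlapped. Its change was -0.18 with an interval from -0.37 to 0.011 (adjusted p = 0.0850), and with the replicate number as a block it passed (adjusted p = 0.0125). URB1 was also called lower under each rescaling, at -0.41, -0.30 and -0.24 in the order given for DBP10.

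Nop7, Erb1 and Ytm1 form a complex that, with neighbouring proteins at the second internal spacer (ITS2), acts in the removal of the first spacer and the folding of the particle. All 6 genes of this group fell, with a median of -0.52. NOP7 read 12.38, 12.43 and 12.37 in WT Hsc82 and 11.76, 11.75 and 11.73 in hsc82-W296A, which gave a change of -0.65 ± 0.041 (adjusted p = 2.51e-05). CIC1 read 13.66, 13.63 and 13.60 and then 13.09, 13.03 and 12.98, a change of -0.60 ± 0.048 (adjusted p = 6.04e-05). RLP7, related in sequence to ribosomal protein L7, read 13.38, 13.36 and 13.35 and then 12.86, 12.76 and 12.80, a change of -0.56 ± 0.045 (adjusted p = 6.11e-05). No array of hsc82-W296A reached a WT Hsc82 array in these genes. YTM1 changed by -0.49, NOP15 by -0.46 and ERB1 by -0.37 (adjusted p = 0.00131 for ERB1), and all were called lower.

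Factors of the modules that coat the maturing particle were lower throughout: 11 of 11 fell, with a median of -0.63. RPF1, a Brix-domain protein that works with Nsa1, Mak16 and Rrp1, read 12.39, 12.39 and 12.34 in WT Hsc82 and 11.60, 11.54 and 11.59 in hsc82-W296A. It changed by -0.79 ± 0.042 (adjusted p = 1.28e-05). In the same module RRP1 changed by -0.74, MAK16 by -0.70 and NSA1 by -0.52, and all were called lower. SSF1, another Brix-domain protein, read 11.79, 11.69 and 11.69 and then 11.01, 10.94 and 11.00, a change of -0.74 ± 0.049 (adjusted p = 2.98e-05). Its module partners RRP14 and RRP15 changed by -0.67 and -0.63. NOP16 read 12.73, 12.71 and 12.71 and then 12.17, 12.11 and 12.12, a change of -0.58 ± 0.041 (adjusted p = 3.81e-05). EBP2 and BRX1, which bind each other, changed by -0.54 and -0.45, and BRX1 was the brightest member, with a mean of 13.74.

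SSF1 and SSF2 are near-identical duplicates, so transcript of either could bind the other's probes. The mean of SSF2 was 10.93 ± 0.059 (SD, n = 3) with WT Hsc82 and 10.64 ± 0.024 with the substituted form, and its change of -0.29 ± 0.047 (adjusted p = 0.00150) was smaller than that of SSF1. Their changes differed by -0.45, and all 3 hsc82-W296A arrays differed from all 3 WT Hsc82 arrays in this way. By an exact permutation test over arrays, two-sided, p was 0.1, which is as small as 3 against 3 can give. This pair was singled out after its values were seen.

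The listed enzymes that methylate ribosomal RNA of the large subunit were split in their calls as deposited. RRP8, which methylates an adenine of 25S rRNA, read 12.34, 12.34 and 12.28 in WT Hsc82 and 11.58, 11.37 and 11.45 in hsc82-W296A. Its change of -0.86 ± 0.062 (adjusted p = 4.17e-05), a WT Hsc82 over hsc82-W296A ratio of 1.81, was the lowest of the 60 as deposited, but not after quantile normalization, where REI1 was at -0.94 and RRP8 at -0.93, with background and middle matched, where ALB1 was at -1.09 and RRP8 at -1.03, or without replicate 2 of either genotype. NOP2, a cytosine methyltransferase of 25S rRNA, read 12.57, 12.56 and 12.58 and then 12.47, 12.55 and 12.49. NOP2 did not pass, at -0.07 with an interval from -0.17 to 0.031 (adjusted p = 0.185), although its groups did not overlap. SPB1, a methyltransferase that modifies the ribose of 25S rRNA, read 11.62, 11.73 and 11.71 and then 11.60, 11.67 and 11.66, with overlap. Its change was -0.04 with an interval from -0.16 to 0.073 (adjusted p = 0.463). NIP7, a small protein that binds Nop2, was lower, with 13.53, 13.50 and 13.49 in WT Hsc82 and 12.96, 12.90 and 12.87 in hsc82-W296A. NIP7 changed by -0.59 ± 0.045 (adjusted p = 4.78e-05), outside the interval of NOP2. NOP2 and SPB1 were called lower under each rescaling of the arrays, at -0.12 to -0.29 and -0.13 to -0.20.

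**Figure D2:**
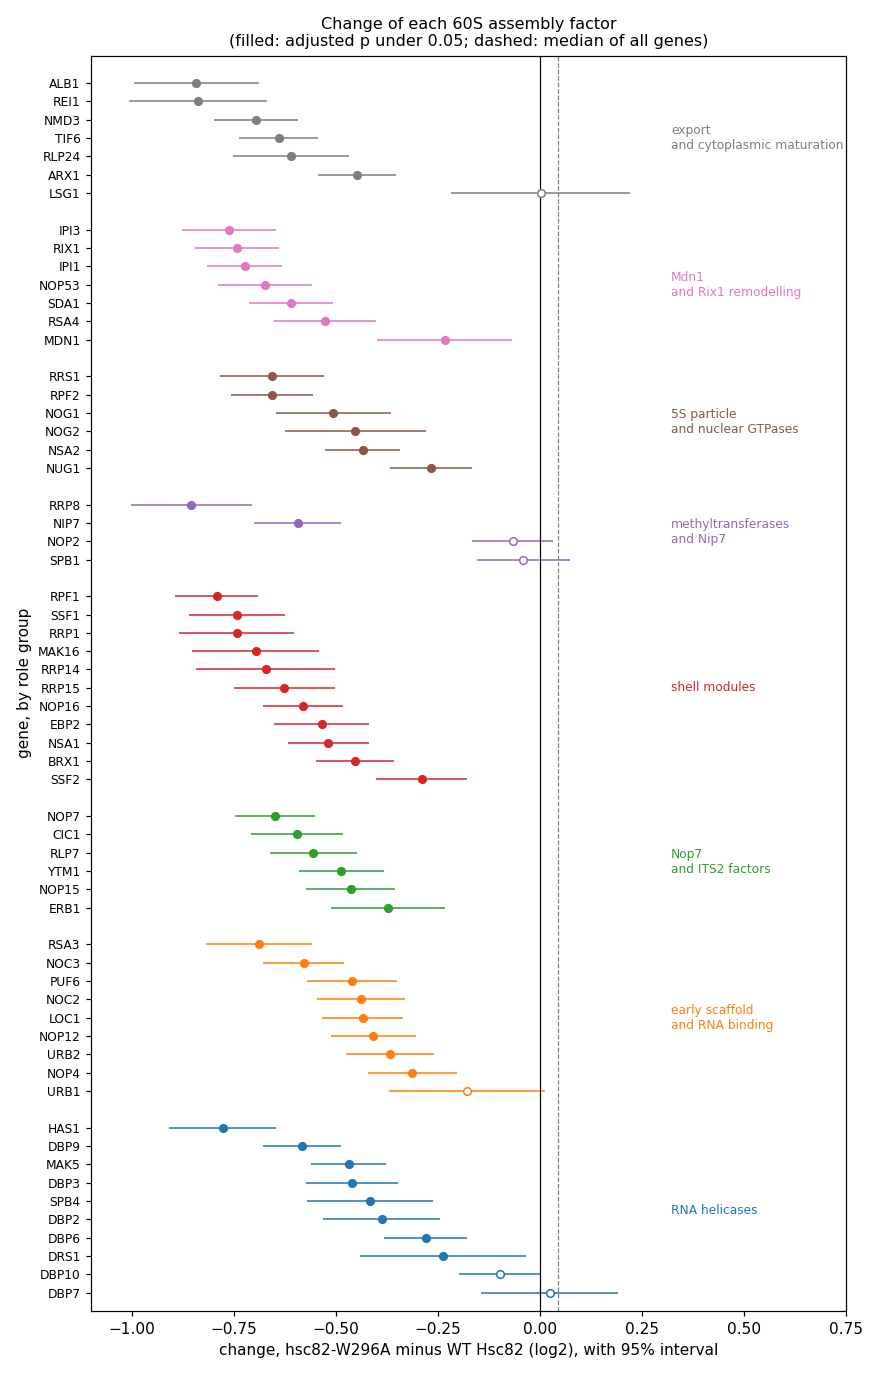
Change of each of the 60 factors (horizontal axis, log2, hsc82-W296A minus WT Hsc82) with its 95% interval from the limma fit, by role group (colours); filled points passed an adjusted p of 0.05 and the dashed line is the median of all genes, 0.04. The 6 open points are DBP7, LSG1, SPB1, NOP2, DBP10 and URB1.

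Rpf2 and Rrs1 bring the 5S RNA particle to the subunit, and Nog1, Nog2 and Nug1 are GTPases that act in the nucleus. All 6 genes of this group fell, with a median of -0.48. RPF2 read 13.32, 13.25 and 13.27 in WT Hsc82 and 12.65, 12.62 and 12.60 in hsc82-W296A, which gave a change of -0.66 ± 0.042 (adjusted p = 2.59e-05). RRS1 read 12.58, 12.47 and 12.54 and then 11.95, 11.82 and 11.85, and also changed by -0.66 (adjusted p = 6.51e-05). The partners thus moved by the same amount to 2 decimals as deposited. With background and middle matched, RPF2 was at -0.91 and RRS1 at -0.85. NSA2, a factor of the nuclear particle, read 13.35, 13.38 and 13.36 and then 12.94, 12.92 and 12.92, a change of -0.44 ± 0.039 (adjusted p = 9.57e-05). NOG1 changed by -0.51, NOG2 by -0.45 and NUG1 by -0.27 (adjusted p = 0.00129 for NUG1).

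Rix1, Ipi1 and Ipi3 form a complex that docks the ATPase Mdn1 on the nuclear particle, where Mdn1 pulls off Rsa4. All 7 genes of the group fell, with a median of -0.67. IPI1 read 12.16, 12.14 and 12.16 in WT Hsc82 and 11.44, 11.42 and 11.42 in hsc82-W296A, which gave a change of -0.72 ± 0.038 (adjusted p = 1.20e-05). RIX1 read 12.04, 12.09 and 12.12 and then 11.37, 11.32 and 11.32, a change of -0.74 ± 0.043 (adjusted p = 1.79e-05). IPI3 read 11.96, 11.89 and 11.95 and then 11.16, 11.23 and 11.12, a change of -0.76 ± 0.048 (adjusted p = 2.51e-05). As deposited, the changes of these complex members differed by less than the SE of IPI3. After quantile normalization IPI1 was at -0.79 and IPI3 at -0.85, further apart than the SE of IPI3 there, 0.049. NOP53, which brings the RNA exosome to the particle, changed by -0.67, SDA1 by -0.61 and RSA4 by -0.53. MDN1 itself read 11.75, 11.90 and 11.80 in WT Hsc82 and 11.51, 11.70 and 11.53 in hsc82-W296A. Its change of -0.23 ± 0.069 (adjusted p = 0.0212) was nearer to 0 than those of the 6 other genes, a difference that was not tested, and it did not pass without WT Hsc82 replicate 2 (adjusted p = 0.0750), hsc82-W296A replicate 1 (adjusted p = 0.0573) or hsc82-W296A replicate 3 (adjusted p = 0.0728).

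Factors of export and of the cytoplasmic steps were lower in 6 of 7 cases, with a median of -0.64. TIF6, which keeps the immature subunit from joining the small one, read 13.50, 13.44 and 13.47 in WT Hsc82 and 12.84, 12.83 and 12.81 in hsc82-W296A, which gave a change of -0.64 ± 0.040 (adjusted p = 2.44e-05). NMD3, the adapter that links the particle to the export receptor, read 13.35, 13.36 and 13.40 and then 12.67, 12.72 and 12.63, a change of -0.70 ± 0.043 (adjusted p = 2.40e-05). ALB1 read 13.47, 13.32 and 13.33 and then 12.62, 12.49 and 12.47, a change of -0.84 ± 0.064 (adjusted p = 5.05e-05). All of these were separated by genotype. ARX1, the export factor that Alb1 binds, changed by -0.45, and REI1, which acts in releasing Arx1 in the cytoplasm, by -0.84. RLP24, a placeholder for ribosomal protein L24, changed by -0.61.

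LSG1, the cytoplasmic GTPase that frees Nmd3 from the subunit, did not follow the other genes of its group. It read 11.14, 11.23 and 11.22 in WT Hsc82 and 10.99, 11.33 and 11.28 in hsc82-W296A, where replicate 1 was the lowest of the 6 arrays and replicate 2 the highest. Its change was 0.0010 with an interval from -0.22 to 0.22 (adjusted p = 0.993), and it became -0.13 with background and middle matched, still without a call. This interval excludes changes of the size of NMD3 and TIF6.

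The call did not depend on how the arrays were scaled in most members. After quantile normalization, median centring or matching of background and middle, 58 of 60 members were called lower and 0 higher by limma, with 41.4%, 42.3% and 40.6% of all genes called lower. The members' median was -0.60, -0.64 and -0.76, and that of all genes -0.06, -0.07 and -0.06 where it was 0.04 as deposited. In all, 54 members were lower and called under each of the 4 scalings, and 52 under every setting run. DRS1 and MDN1 make the difference. The share of all genes that kept such a call throughout was not counted, so these joint counts have no background value.

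**Figure D3:**
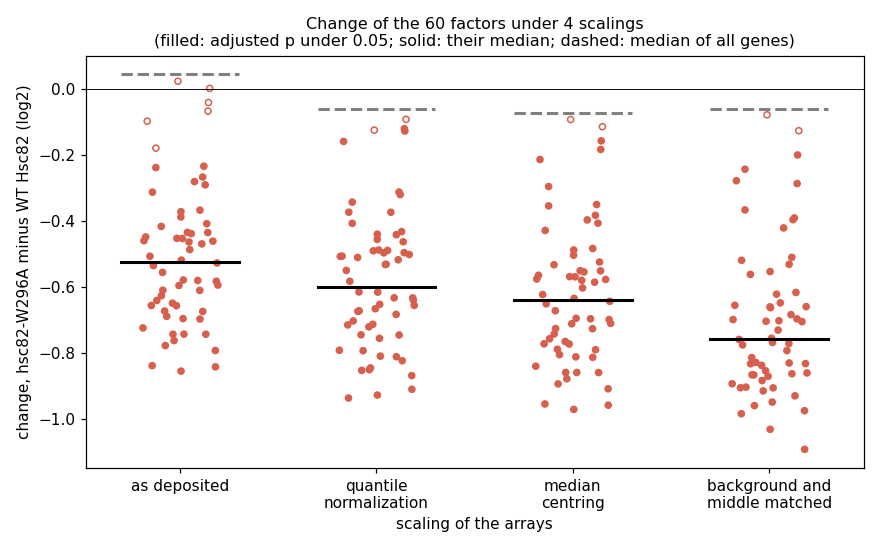
Change of the 60 factors (vertical axis, log2, hsc82-W296A minus WT Hsc82) as deposited and under 3 other scalings of the arrays (horizontal axis); filled points passed an adjusted p of 0.05, solid bars are the factors' medians (-0.52, -0.60, -0.64 and -0.76) and dashed bars the medians of all genes. The points lie lower under each rescaling than as deposited, but by differing amounts. With background and middle matched, BRX1 went from -0.45 to -0.76 and URB1 from -0.18 to -0.24. The 2 points of DBP7 and LSG1 are unfilled under each scaling.

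The SD of the change was 0.22 among members and 0.65 among all genes. All genes had changes from -2.81 to 4.67, and 5136 of the 5449 lay above background, as did all 60 members. These SDs were not compared at matched levels.

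Further factors known for 60S assembly, 32 genes listed by name beside the members, had 25 lower, 1 higher and 6 that did not pass, with a median of -0.46. Of all genes, 30.3% were called lower and 37.1% higher. YVH1, a phosphatase that releases Mrt4 from the particle, read 11.92, 11.82 and 11.87 in WT Hsc82 and 11.06, 10.94 and 10.91 in hsc82-W296A, which gave a change of -0.90 ± 0.056 (adjusted p = 2.34e-05). SDO1, which acts in the release of Tif6, changed by -0.75 (adjusted p = 2.46e-05), RRB1, a chaperone of ribosomal protein L3, by -0.76 (adjusted p = 2.62e-05) and PRP43, a helicase of ribosome assembly and splicing, by -0.68 (adjusted p = 2.92e-05). RIA1, the GTPase that works with Sdo1, was the gene called higher. It read 10.53, 10.70 and 10.81 and then 10.82, 11.06 and 11.10, a change of 0.31 ± 0.10 (adjusted p = 0.0285). The RIA1 groups did not overlap, but the lowest hsc82-W296A value was only just above the highest WT Hsc82 value, and the call was lost after quantile normalization (adjusted p = 0.0947). It was also lost without WT Hsc82 replicate 1 (adjusted p = 0.0753) or 2 (adjusted p = 0.0651), or without hsc82-W296A replicate 2 (adjusted p = 0.0895) or 3 (adjusted p = 0.0939).

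Factors that assemble the small, 40S, subunit gave values close to those of the 60S factors: 46 of 55 were lower, 0 higher and the median was -0.50. Genes of 60S ribosomal proteins, the parts that the factors assemble, had 28 of 76 lower, 0 higher and a median of -0.08. That count is 36.8% of the list, near the 30.3% of all genes. However, 73 of the 76 had a change below 0, as did 45.8% of all genes. In 56 the groups did not overlap, with hsc82-W296A lower, a separation that 34.1% of all genes showed. By limma at an unadjusted p under 0.05 no gene of either list was higher, and 47 and 33 were lower. Rescaling moved the ribosomal protein count: quantile normalization gave 28 lower, median centring 69 and the matching of background and middle 75, with medians of -0.08, -0.20 and -0.42, where 41.4%, 42.3% and 40.6% of all genes were called lower. Their median level in WT Hsc82 was 14.27, near the top of the scale at 14.79 to 14.93, and 12.44 for the members. The difference between these lists was not tested, and whether signal is compressed near the top was not tested.

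**Figure D4:**
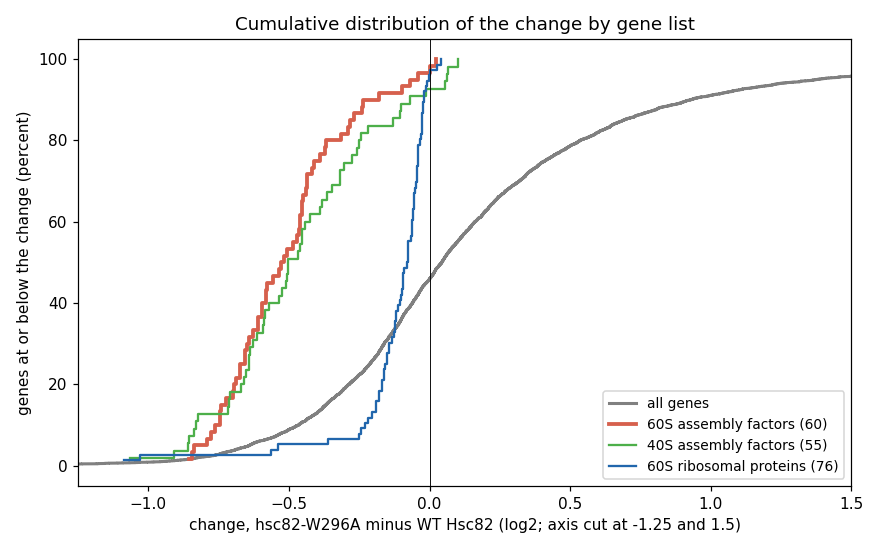
Share of genes (vertical axis, percent) at or below each change (horizontal axis, log2, hsc82-W296A minus WT Hsc82) for the 60 60S assembly factors, 55 40S assembly factors, 76 60S ribosomal protein genes and all 5449 genes, as deposited. The curves of both groups of assembly factors run close together, with medians of -0.52 and -0.50, while the ribosomal protein genes rise steeply near their median of -0.08.

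Gene order along the chromosomes was read from a gene table of assembly R64. Of the members, 6 lie next to a gene of the 40S assembly list: NSA2 beside LCP5, SSF1 beside RRP3, NMD3 beside DBP8, RIX1 beside UTP9, RSA3 beside UTP13 and RRP15 beside NOC4. Both genes were called lower in 6 of these 6 pairs, and in 10.3% of all 5017 adjacent pairs of measured genes. Since most genes of both lists were lower, the pairs add no separate evidence. No pair of members lay side by side, and no member lay next to one of the further 60S factors.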

How the data were processed

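The deposited table holds log2 values, as judged from their range, which the authors normalized across arrays. Per the labels' protocols, RNA was extracted with Trizol and made into biotinylated cRNA. Limma is named in the submitters' processing notes; its role there, and how background, normalization and probe summaries were handled, is not given in the sources used here. Of 10928 probe sets, 5498 were assigned to 5449 S. cerevisiae genes through the platform annotation and gene IDs of an R64 gene table, and 1746 to another species. The brightest probe set stood for a gene. Background, 8.14, was percentile 95 of the means of other-species probe sets. Arrays have no depth, and their number limits precision.

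All S. cerevisiae probe sets were fitted together (limma 3.58.1, R 4.3.3, lmFit and eBayes) with genotype as the only term, p-values were adjusted over all 5498, and gene counts are over 5449. The script was tested on simulated data with independent noise and few planted changes, which checks the code and not the changes reported here. Summaries used Python 3.11.15, numpy 2.4.6, pandas 2.3.3 and matplotlib 3.10.9. Members and lists were chosen with earlier results of these data known. Any member could be named. Values on every array are given for up to 3 members of a role group by smallest adjusted p and for members not called, and also for MDN1, chosen after its values were seen. Of the further 60S factors, 4 by smallest adjusted p and any called higher are named. 40S factors are named for their position only. TEF1, a listed marker, is not analysed here.

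Both groups use replicate numbers 1 to 3. Same-numbered arrays deviated together from their group means (correlations of 0.405, 0.148 and 0.364), and the numbers count as pairs by this check alone, since no label states a pairing. Arrays with different numbers reached 0.139 and 0.107, so pair 2 is little different from them. The replicate block was run as an alternative, not in the fit reported. Other alternatives were 3 rescalings, an intensity trend, other choices of probe sets and leaving out each array. Matching of background and middle stretches and shifts every array linearly until 2 of its medians, that of the background probe sets and that of the yeast genes, sit at their average over the 6 arrays.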

Additional observations from a re-analysis of the deposited data

How the results depend on the processing

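The count of members called lower was 54 as deposited, 52 to 54 when any one array was left out, 55 with the replicate block and 58 under each rescaling. Of all genes, 30.3% were called lower as deposited, 32.3% with the replicate block and 40.6% to 42.3% under the rescalings. That share was not counted for the fits without an array. The members' median was -0.52 as deposited and -0.54 to -0.52 without an array, and it moved by more than the spread between replicates to -0.60 (quantile normalization), -0.64 (median centring) and -0.76 (background and middle matched). Under these rescalings, URB1, DBP10, NOP2 and SPB1 became called lower. DBP7 changed sign to -0.13, -0.093 and -0.079 and LSG1 to -0.093, -0.12 and -0.13, in the same order, without a call. When single arrays were left out, DBP7 ranged from -0.046 to 0.066 and LSG1 from -0.063 to 0.10, also without a call. The cause was not tested. The replicate block made URB1 pass (adjusted p = 0.0125) and changed no other call of a member. Leaving out dim probe sets or shared IDs, an intensity trend and a fit over all probe sets changed no call of a member. Of the further 60S factors 25 to 29 were called lower over these settings. No member had several probe sets, so the choice of the dimmer one was not run. The removal of a coding length trend and the promoter motif description were not run, since protein and promoter sequences were not used here. All 60 members lay above the background level of 8.14, and the part of background in their changes was not tested.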
